A study of Mus musculus with 8 samples.

Results

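The genes described here carry out MHC class I antigen presentation and its immunoproteasome step in the epithelium-enriched fraction of the mouse distal lung, and they were compared between 2 genotypes of the nicotinic α7 receptor and between cigarette smoke (CS) and control. They were chosen by symbol, as 10 named genes of the 22756 genes in the count tables. No measured value entered this rule, but earlier results of these data were known when the genes were chosen. Of the 10, 9 have a row in the tables and 8 had a mean count of at least 200 over the 8 libraries, the level at which genes were tested. The tenth, Nlrc5, the transactivator of class I genes, is annotated without coding sequence in the gene models used for counting and was not analysed here.

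The α7G mouse (Chrna7-IRES-tauGFP) carries a reporter cassette behind the otherwise unchanged Chrna7 gene and served as the control genotype. The α7E260A:G mouse (Chrna7-E260A-IRES-tauGFP) carries the same cassette and a point mutation that limits the calcium signal of the receptor. Adult mice of both genotypes, on a background of more than 90% C57BL/6, breathed side-stream CS for 4 months, 5 days in each week, or were kept as controls. Each of the 4 groups (α7G control, α7G CS, α7E260A:G control, α7E260A:G CS) is represented by 1 male and 1 female library. The mutation is in every cell of the animal. The number of mice behind a library is not given in the sources used here, so p-values measure the spread between these libraries. Within a group that spread includes any difference between the sexes. Library totals lay between 8020726 and 10944100 counts, and the Y-linked Ddx3y was counted 520 to 882 times in each male and 0 times in each female library, as labelled. Chrna7, which carries the mutation, had 0 counts in 7 libraries and 4 counts in the other, so the genotype could not be read from these counts.

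Cells present peptides of their own proteins on MHC class I molecules, a heavy chain held by β2-microglobulin. The proteasome cuts the proteins, the TAP transporter carries the peptides into the endoplasmic reticulum, and tapasin holds TAP and the empty heavy chain together for loading. Interferon-γ raises most of these genes and swaps the catalytic subunits of the proteasome for those of the immunoproteasome, and in the lung epithelium this route displays viral peptides to CD8+ T cells.

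The fraction held leukocytes beside epithelium, although CD45-positive cells had been depleted. Ptprc, the gene of CD45, stood at 191 to 480 RPM per kb of coding sequence (CDS) against 83.1 to 225 for Epcam, the surface marker of epithelium. The epithelial marker Krt19 was higher, at 414 to 824. Cdh1, Krt8 and Krt18 were at 28.1 to 110, 50.8 to 147 and 67.1 to 245. Levels of single markers do not give the shares of the cell types. The 6 leukocyte markers summed to 5990 to 7490 RPM (the count as a share of the library total, on the usual reads-per-1e+06 scale) in the α7G libraries and to 6440 to 7050 RPM in the α7E260A:G libraries, which overlap. Some other marker lists did not overlap between genotypes: 16 alveolar macrophage genes summed to 12900 to 19500 RPM in α7G and 28700 to 44700 RPM in α7E260A:G. In the same order, 7 B cell genes summed to 1410 to 2250 and 907 to 1140 RPM, and 8 alveolar type II genes to 19300 to 29200 and 4490 to 14100 RPM. The 5 alveolar type I genes summed to 388 to 475 and 140 to 327 RPM. Chi3l3 alone averaged 9940 and 25400 RPM of the macrophage sum, and Sftpc 15200 and 5560 RPM of the type II sum. These counts do not assign any of the 9 measured members to leukocytes or to epithelium. No marker list was wholly at 0, and the part of these cells in the results below was not tested. In such bulk RNA, fewer cells of a type and less RNA per cell cannot be told apart.

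Of the 9 measured members, 7 lie in the MHC region of chromosome 17 (genome build mm9). They include the heavy chain genes H2-K1 (chr17:34132962-34137278, minus strand) and H2-D1 (chr17:35399675-35404444, plus strand), and Tapbp, the gene of tapasin (chr17:34052844-34066235, plus). Between H2-K1 and H2-D1 lie Tap1 (chr17:34324498-34334170, plus), Psmb8 (chr17:34334666-34338399, plus), Tap2 (chr17:34340472-34353266, plus) and Psmb9 (chr17:34318933-34324709, minus, for the gene entry that had counts). B2m, the gene of β2-microglobulin, is on chromosome 2 (chr2:121973422-121978819, plus) and Psmb10 on chromosome 8 (chr8:108459628-108462292, minus). The RefSeq start sites of Tap1 and Psmb9 are 226 bases apart on opposite strands.

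The 250 bases before the RefSeq start site (table of build GRCm38.p6) were found for 8 of the 10 members, each with 1 exact match on its mm9 chromosome. H2-K1, H2-D1 and B2m share an arrangement of promoter letters: a CRE core (TGACG), then 20 bases, then an inverted CCAAT box (ATTGG). These are the letters of the X2 and Y boxes of class I promoters, through which the class I transactivator is known to act. The stretches are shown to let the 3 genes be compared, with the CRE core and the inverted CCAAT box in capitals.

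H2-K1, chr17:34137304-34137333, minus strand: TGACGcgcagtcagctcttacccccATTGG

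H2-D1, chr17:35399938-35399967, plus strand: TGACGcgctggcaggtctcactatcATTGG

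B2m, chr2:121973345-121973374, plus strand: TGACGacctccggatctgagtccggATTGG

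The H2-K1 and H2-D1 stretches are identical at 23 of 30 bases, whereas B2m matches H2-K1 at 13 and H2-D1 at 12. The arrangement, searched on both strands, was found in 3 of the 8 members and in 0.0913% of the 32851 promoter windows of the table. It was chosen after the member sequences had been read, so the count is a description. Single motifs are far more common: TGACG was in 5 of the 8 members and 17.8% of all windows, and CCAAT in 6 of the 8 and 33.8%.

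The whole 250 bases are shown for H2-K1 and B2m, as the windows of a heavy and the light chain, with every match in capitals. Searched besides these were an interferon-stimulated response element (GAANNGAAA), a gamma activated site (TTCNNNGAA) and the NF-κB consensus, all on both strands.

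H2-K1, chr17:34137293-34137542, minus strand: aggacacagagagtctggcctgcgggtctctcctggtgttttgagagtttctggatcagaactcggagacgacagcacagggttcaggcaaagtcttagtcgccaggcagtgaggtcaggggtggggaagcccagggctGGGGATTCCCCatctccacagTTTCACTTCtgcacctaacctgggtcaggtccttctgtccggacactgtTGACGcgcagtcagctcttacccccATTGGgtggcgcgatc

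B2m, chr2:121973173-121973422, plus strand: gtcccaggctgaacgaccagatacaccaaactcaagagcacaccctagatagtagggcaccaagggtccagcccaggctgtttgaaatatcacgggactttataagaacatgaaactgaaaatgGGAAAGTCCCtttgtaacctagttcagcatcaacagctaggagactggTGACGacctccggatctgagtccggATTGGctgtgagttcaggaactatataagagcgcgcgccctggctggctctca

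The NF-κB consensus was in these windows and that of H2-D1, so in 3 of the 8 members against 7.25% of all windows. The interferon element letters as searched were in H2-K1 and H2-D1 (6.31% of all windows), and the gamma activated site letters in Psmb8 (7.02%). The B2m window holds gaaactgaaa, which is close to the interferon element letters but does not match them. Other spellings of that element were not searched, so windows without a match are not shown to lack it. Matches are letters in a window and not sites of binding.

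B2m was the most abundant member, as levels per length show. Over the 8 libraries B2m had 8647 ± 3278 RPM per kb of CDS (mean ± SD, n = 8), rank 8 of all genes. The heavy chains followed, H2-D1 at 1403 ± 85.0 (rank 71) and H2-K1 at 1184 ± 199 (rank 91). Their ranges overlapped, from 1296 to 1564 and from 923 to 1438, and H2-K1 stood at 0.66 to 0.958 of the H2-D1 level within a library. Reads on these genes may be split among relatives, since 12.8% of the 50-base windows of the H2-K1 CDS and 23.5% of those of H2-D1 are identical in other class I genes.

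The processing genes were at lower levels. The immunoproteasome subunits Psmb8 (LMP7) and Psmb10 (MECL-1) had 314 ± 69.5 and 206 ± 44.7 RPM per kb of CDS. Tapbp had 159 ± 32.0, and Tap2 and Tap1, which pair to form the transporter, had 76.5 ± 12.3 and 65.9 ± 15.05 RPM per kb. The ranges of Psmb8 (233 to 402) and Psmb10 (156 to 262) overlapped, as did those of Psmb10 and Tapbp (109 to 204) and of Tap2 (61.4 to 93.7) and Tap1 (42.9 to 91.3), so the order of these neighbours is not clear of their spread. Within a library, however, Psmb8 was always above Psmb10, by 1.45 to 1.69 times, and Tap1 always below Tap2, at 0.694 to 0.989 of its level.

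Psmb9 (LMP2), the third immunoproteasome subunit, is undercounted. It has 2 overlapping gene entries, and only 126 CDS bases of the second (chr17:34318981-34319106) belong to no other entry. The first entry had 0 counts in every library and the second a mean of 138 counts, below the level for testing. Its counts are given as they are and no level per length is compared.

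The median coefficient of variation over the 8 libraries was 20.9% for the 8 members tested and 25.1% for all 7378 genes tested. B2m varied most (37.9%) and H2-D1 least (6.06%), although both belong to the same molecule.

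**Figure D1:**
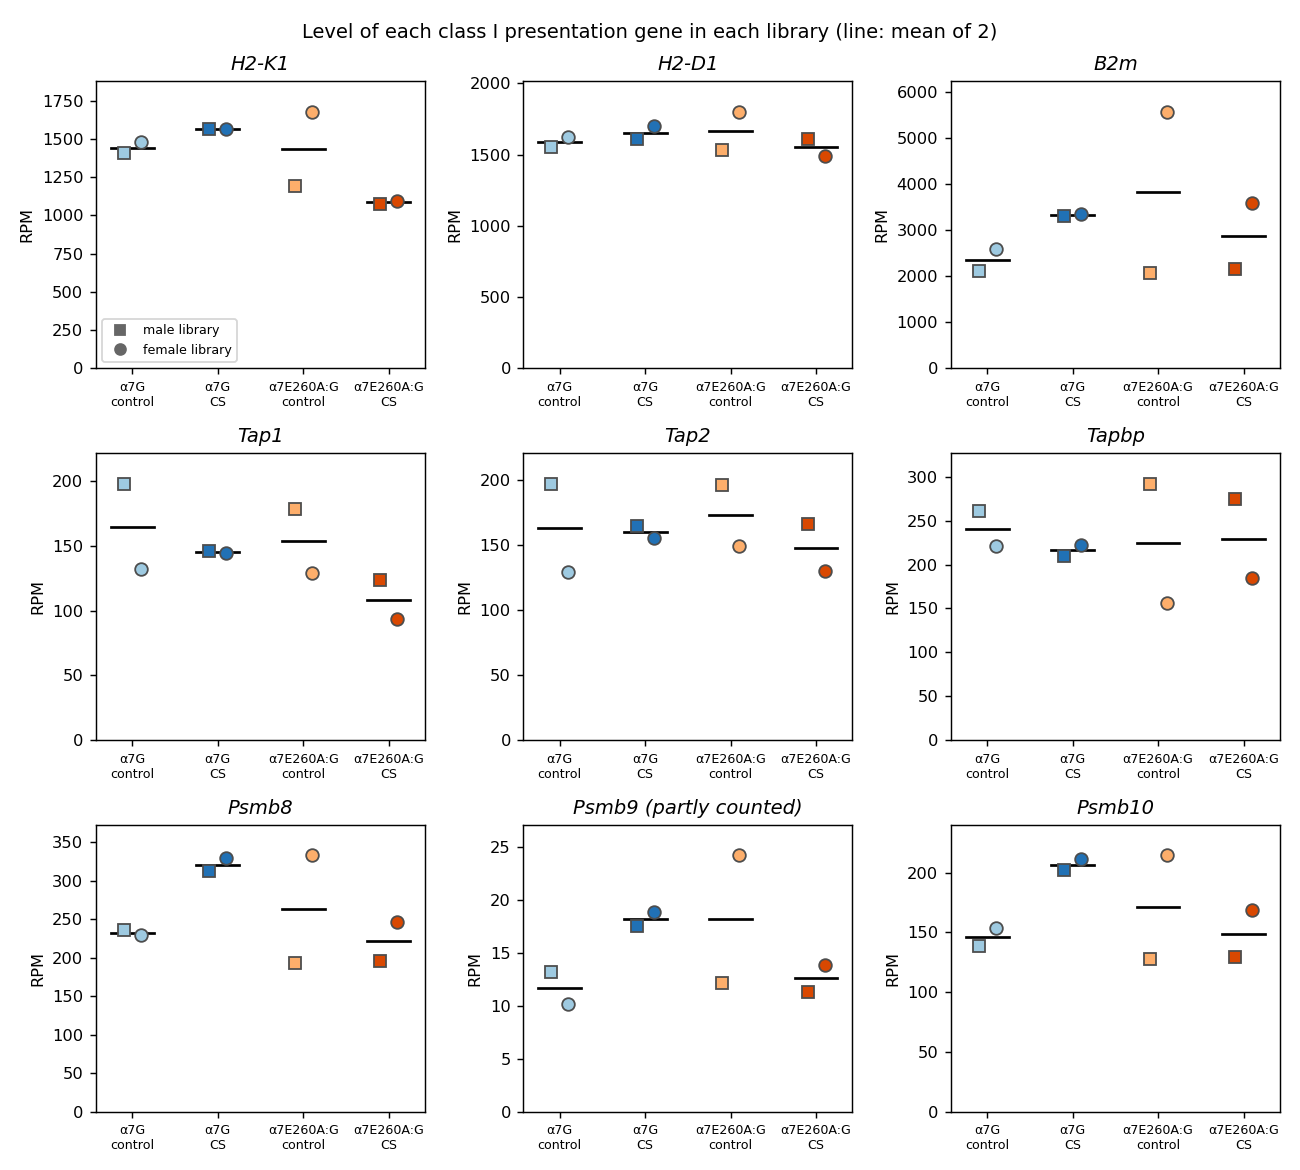
RPM (y axis, from 0) of the 9 measured members in each library, by group (x axis). Squares are male and circles female libraries, and the line is the mean of the 2. The female α7E260A:G control library is the highest for H2-K1, H2-D1, B2m, Psmb8, Psmb9 and Psmb10 and the lowest for Tapbp.

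The heavy and light chains were highest in the same library. H2-K1 had 1406 and 1480 RPM in the male and female α7G control libraries, 1563 and 1566 in α7G CS, 1195 and 1678 in α7E260A:G control, and 1077 and 1093 in α7E260A:G CS. Both α7E260A:G CS libraries were thus below all others, while the 2 α7E260A:G controls were far apart. H2-D1 hardly moved, from 1491 RPM in the female α7E260A:G CS library to 1800 in the female α7E260A:G control. B2m had 2117 and 2587 RPM in the male and female α7G control libraries, 3300 and 3335 in α7G CS, 2074 and 5563 in α7E260A:G control, and 2141 and 3579 in α7E260A:G CS. For B2m both α7G CS libraries were above both α7G controls, as for 23.9% of all genes tested. In α7E260A:G the female libraries were above the male ones whatever the exposure.

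Tap1, of the transporter genes, was lowest in α7E260A:G after CS. It had 198 and 132 RPM in the male and female α7G controls, 146 and 144 in α7G CS, 178.5 and 129 in α7E260A:G control, and 124 and 93.2 in α7E260A:G CS. Tap2, its partner in the transporter, had 197 and 129, then 165 and 156, 196 and 149.5, and 166 and 130 RPM in the same order. Tapbp ran from 157 RPM in the female α7E260A:G control library to 292 in the male library of that group.

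As counted, the immunoproteasome subunits Psmb8 and Psmb10 followed B2m, with a Pearson r over the 8 libraries of 0.91 and 0.94 (log2 scale). With the dependence on CDS length described further on removed, r was 0.37 and 0.41. Psmb8 had 237 and 229 RPM in the male and female α7G controls, 313 and 330 in α7G CS, 193 and 333 in α7E260A:G control, and 196.5 and 247 in α7E260A:G CS. Psmb10 had 139 and 154, then 202.5 and 211, 128 and 214.5, and 129 and 169 RPM in the same order. For Psmb8 and Psmb10 the α7G CS libraries were above the α7G controls without overlap, as for 23.9% of all genes tested. Their α7E260A:G libraries overlapped. The counts of Psmb9 were 110 and 95, then 151 and 167, 100 and 265, and 91 and 125, highest in the female α7E260A:G control library as for Psmb8 and Psmb10.

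The first comparison asked whether the genotypes differ whatever the exposure. No member passed the test between them: the fitted log2 fold changes (α7E260A:G over α7G, edgeR quasi-likelihood test) ran from -0.21 for Tap1 to 0.37 for B2m. Adjusted p-values lay between 0.763 for Tap1 and 0.992 for Psmb10. In this comparison 0.108% of all genes tested were called at an adjusted p of 0.05 (8 genes) and 11.7% had an unadjusted p under 0.05, against 0 of the 8 members by either rule. With DESeq2, 422 genes and 0 members were called. Of the members, 4 were above and 4 below 0, and their median was 0.00 against 0.04 for all genes tested. The 95% intervals were narrowest for Tap1 (-0.60 to 0.18) and Tap2 (-0.345 to 0.43) and widest for B2m (-0.63 to 1.36), so for B2m a level from 0.647 to 2.57 times that of α7G is within the interval. No member had all 4 α7E260A:G libraries above or below all 4 α7G libraries, which 3% (above) and 5.18% (below) of all genes tested did in RPM. With the dependence on CDS length described further on removed these shares were 7.21% and 5.72%, and again 0 members were among them. Without the female α7E260A:G control library, the highest for H2-K1, this gene was lower in α7E260A:G without overlap, with a log2 fold change of -0.42. The shares above are for 4 against 4 libraries. None is given for the smaller set, so this case cannot be set against all genes.

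The second comparison asked what CS did in both genotypes together. None of the 8 members was called, and neither was any other gene (0% of all genes tested at an adjusted p of 0.05 with edgeR, 7.22% at an unadjusted p of 0.05, 35 genes with DESeq2). Tap1 had the largest log2 fold change of the members, -0.32 (95% interval -0.71 to 0.07, adjusted p = 0.656). The others lay between -0.14 for H2-K1 and 0.15 for Psmb10. No member had all 4 CS libraries above or below all 4 controls, which 1.63% and 0.407% of all genes tested did in RPM and 1.42% and 1.73% with length dependence removed. The median of the members was -0.03 and that of all genes tested -0.01.

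The third comparison took the CS effect in α7G alone. Psmb10, B2m and Psmb8 were the members furthest from 0, with log2 fold changes of 0.61, 0.61 and 0.58 and 95% intervals of -0.305 to 1.53, -0.805 to 2.02 and -0.335 to 1.49. H2-K1 (0.23), H2-D1 (0.17), Tap2 (0.10), Tapbp (-0.04) and Tap1 (-0.06) were nearer to 0. None was called (adjusted p = 0.603 for Psmb8 and Psmb10 and 0.664 for B2m, edgeR), nor was any other gene (0%), and 6.19% of all genes tested and 0 members had an unadjusted p under 0.05. H2-K1, B2m, Psmb8 and Psmb10 had both CS libraries above both controls in RPM, 4 of 8 members against 23.9% of all genes tested, and 0 members had both below, which 40.6% of all genes did. Within sex, 5 members (these and H2-D1) were higher with CS in both sexes and 0 lower, against 28% and 46.8% of all genes tested. The median log2 fold change was 0.20 over the 8 members and -0.02 over all genes tested.

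Fitted to the 4 α7G libraries alone, Psmb8 and Psmb10 passed the threshold. Their log2 fold changes stayed at 0.58 and 0.61, with adjusted p = 0.0484 and 0.0464 (edgeR quasi-likelihood test), and 7.2% of all genes tested were called higher in that fit. The calls did not hold once the libraries' dependence on CDS length was taken out, in a fit added after the data had been seen. There the log2 fold changes were 0.25 and 0.28 (adjusted p = 0.404 and 0.334) and 0 of 7378 genes were called.

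This length dependence moved with CS in α7G. The slope of log2 CPM (the same share after TMM scaling) on CDS length was 0.22 and 0.06 per doubling of length in the male and female α7G controls and -0.23 and -0.20 in the α7G CS libraries, so short coding sequences read relatively higher after CS. In α7E260A:G it went with the sex of the library, at 0.42 and 0.20 in the male control and CS libraries and -0.29 and -0.17 in the female ones. B2m has the shortest CDS of the members, 357 bases, against 1167 in H2-K1 and 2172 in Tap1. With an offset for length, the CS effect on B2m in α7G turned from 0.61 to -0.14 on the log2 scale and that on Tap1 from -0.06 to 0.14, whereas Psmb10 (0.28), Psmb8 (0.25) and H2-K1 (0.09) kept their sign. In that fit, too, no member was called. With length dependence removed, H2-K1, Tap2, Psmb8 and Psmb10 were higher in both CS libraries than in both controls (25.6% of all genes tested) and B2m was lower (24.5%). The same members were higher (32.2%) and lower (31.8%) within both sexes.

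**Figure D2:**
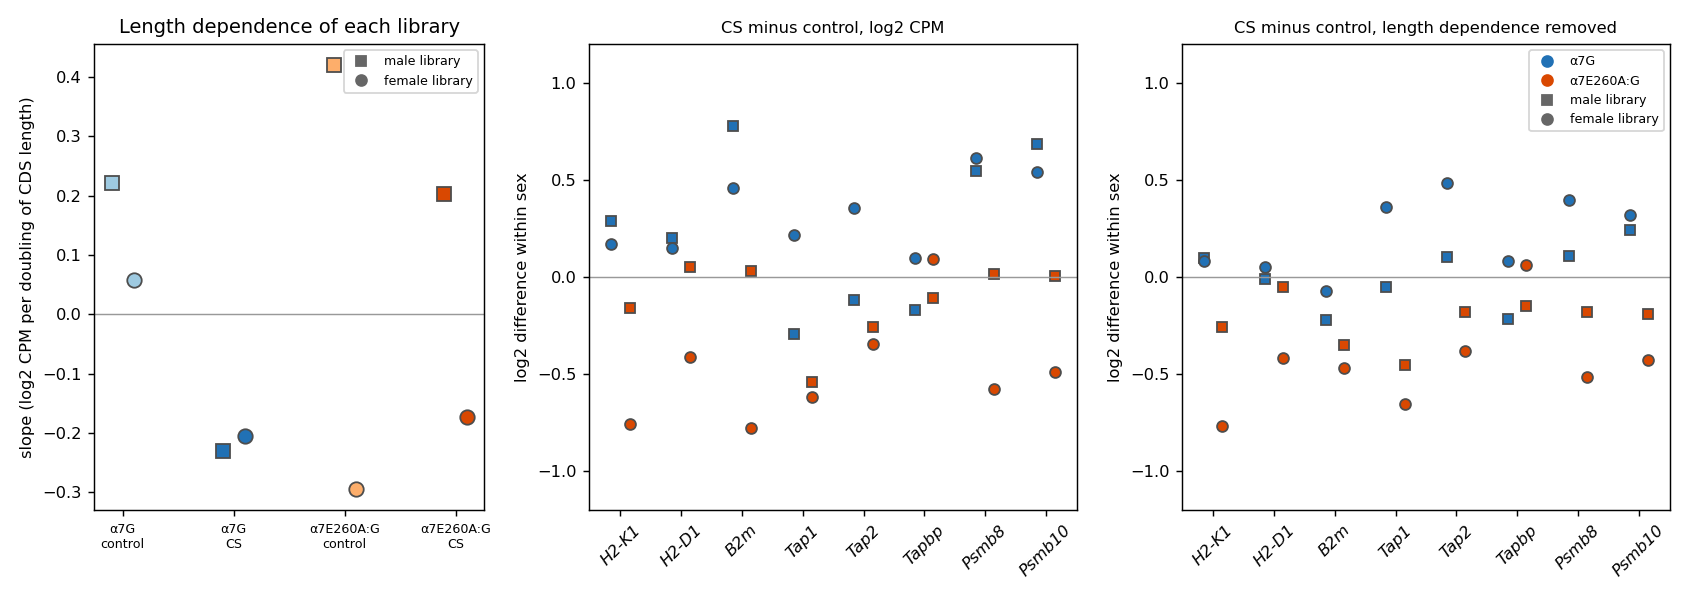
Left, slope of log2 CPM on CDS length (log2 per doubling) for each library by group, with squares for male and circles for female libraries. Middle and right, log2 difference between the CS and control library of the same sex for the 8 members tested, on log2 CPM as it is and with the dependence on CDS length removed. B2m in α7G lies above 0 in the middle panel and below 0 on the right, and in α7E260A:G 7 of the 8 members lie below 0 in both sexes on the right.

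The next comparison took the CS effect in α7E260A:G. All 8 members had log2 fold changes below 0, with a median of -0.34 against -0.04 for all genes tested, and none was called (edgeR, adjusted p of 1 for each of the 8, 0% of all genes). Tap1 was furthest from 0, at -0.58 (95% interval -1.13 to -0.03, unadjusted p = 0.0427), the only member below an unadjusted p of 0.05, which 1.3% of all genes tested reached in the lower direction. B2m followed at -0.55, H2-K1 at -0.52, Psmb8 at -0.37, Psmb10 at -0.315, Tap2 at -0.30, H2-D1 at -0.21 and Tapbp at -0.02. In RPM, Tap1 and H2-K1 had both CS libraries below both controls, 2 of 8 members against 3.2% of all genes tested, and 0 had both above (15.5%). At an unadjusted p of 0.05 in either direction, 2.41% of all genes tested passed.

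Several of these values rested on the female control library, the highest for 6 members. Without it, B2m (0.59), Psmb10 (0.34), Psmb8 (0.32) and H2-D1 (0.11) were above 0 and H2-K1 was at -0.04, while Tap1 (-0.63) and Tap2 (-0.32) stayed where they were. With the length offset and all libraries, the 8 members stayed below 0, from -0.06 for Tapbp to -0.56 for Tap1 (unadjusted p = 0.0139, adjusted p = 0.702). H2-K1, at -0.55 (95% interval -1.03 to -0.06), also had an unadjusted p under 0.05, 0.0324, as did 5.04% of all genes tested in that fit. Within sex, 3 members (H2-K1, Tap1 and Tap2) were lower with CS in both sexes in RPM, against 17.9% of all genes tested, and 7 (all but Tapbp) once length dependence was removed, against 27.6%. None was higher in both sexes (35.4% and 29% of all genes). With length dependence removed, 6 members (all but Tapbp and Psmb10) had both CS libraries below both controls, against 12.8% of all genes, and 0 had both above (14.3%).

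The last comparison tested whether the CS effect differs between the genotypes. The interaction was below 0 for 7 of the 8 members, with a median of -0.63 against 0.03 for all genes tested, and was called for none (adjusted p of 0.992 or above, edgeR, 0% of all genes; 1.68% of all genes and 0 members at an unadjusted p of 0.05). The log2 values were -1.16 for B2m, -0.945 for Psmb8, -0.93 for Psmb10, -0.75 for H2-K1, -0.52 for Tap1, -0.39 for Tap2, -0.38 for H2-D1 and 0.02 for Tapbp. These values rested on the α7E260A:G control libraries. Without the female one they were -0.0157 for B2m, -0.264 for Psmb8, -0.273 for Psmb10, -0.268 for H2-K1 and -0.0598 for H2-D1, and without the male one -1.78, -1.39, -1.36, -1.10 and -0.629. With the length offset B2m shrank to -0.27 and Tap1 became the furthest, at -0.70 (unadjusted p = 0.024, adjusted p = 0.973). H2-K1 was higher with CS in both α7G pairs of equal sex, by 1.11 and 1.06 times in male and female, and lower in both α7E260A:G pairs, at 0.902 and 0.651 times. No other of the 8 members did so in RPM, against 2.34% of all genes tested. With length dependence removed, Tap2, Psmb8 and Psmb10 did the same, 4 of 8 members against 6.63%. The CS effects in α7G and α7E260A:G share no library, and both enter this difference. Psmb9, tested only under looser filters, had log2 CS effects of 0.77 in α7G and -0.64 in α7E260A:G and an interaction of -1.42 with no abundance filter (95% interval -2.76 to -0.07, adjusted p of 1, edgeR). With filterByExpr the interaction was -1.43 and its interval, -2.89 to 0.04, included 0.

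**Figure D3:**
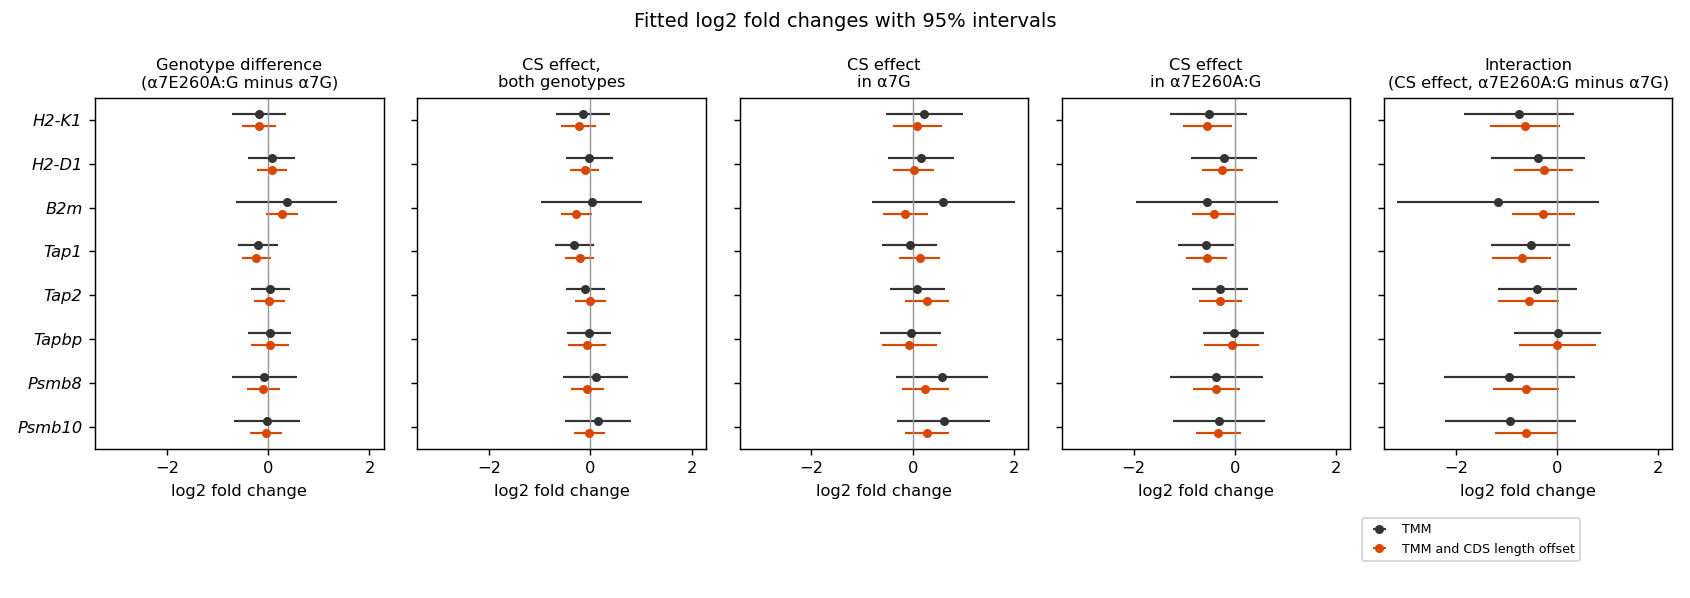
Fitted log2 fold changes (x axis) of the 8 members tested in the 5 comparisons, with 95% intervals, from the fit with TMM scaling (dark) and with an added offset for CDS length (orange). Most intervals include 0, the exceptions being Tap1 in α7E260A:G under both fits, and H2-K1 there and Tap1 in the interaction under the length offset.

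The balance of the immunoproteasome against the constitutive proteasome was read within each library, where library size cancels. Per kb, Psmb8 stood at 4.68 and 4.02 times Psmb5, the subunit it replaces, in the male and female α7G controls, 3.65 and 4.17 in α7G CS, 4.73 and 4.37 in α7E260A:G control, and 3.28 and 3.08 in α7E260A:G CS. The α7E260A:G CS libraries were thus the lowest of the 8 and the α7G libraries overlapped between exposures. Psmb10 against Psmb7 was close to even, at 1.26 and 1.06, then 1.05 and 1.21, 1.36 and 1.24, and 1.15 and 0.885 in the same order. The log2 ratio of Psmb9 to Psmb6 counts was -3.40 and -4.22, then -4.14 and -3.79, -3.56 and -3.62, and -3.99 and -4.48, so that it was lower after CS in both sexes of α7E260A:G and in the male pair of α7G and higher in the female pair of α7G.

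None of the 6 tests of these ratios passed, and none took CS within α7E260A:G alone. With CS, the log2 ratio of Psmb8 to Psmb5 was 1.82 ± 0.19 against 2.16 ± 0.11 in the controls (SD, n = 4), a difference of -0.33 (two-sided exact permutation test, p = 0.0571, adjusted p = 0.342 over the 6 tests). The differences were -0.40 for Psmb9 to Psmb6 (exact p = 0.171) and -0.20 for Psmb10 to Psmb7 (exact p = 0.143). Between genotypes they were -0.11, -0.02 and 0.00 (exact p of 0.514, 0.943 and 1). The smallest p that 4 against 4 libraries allow is 0.0286.

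**Figure D4:**
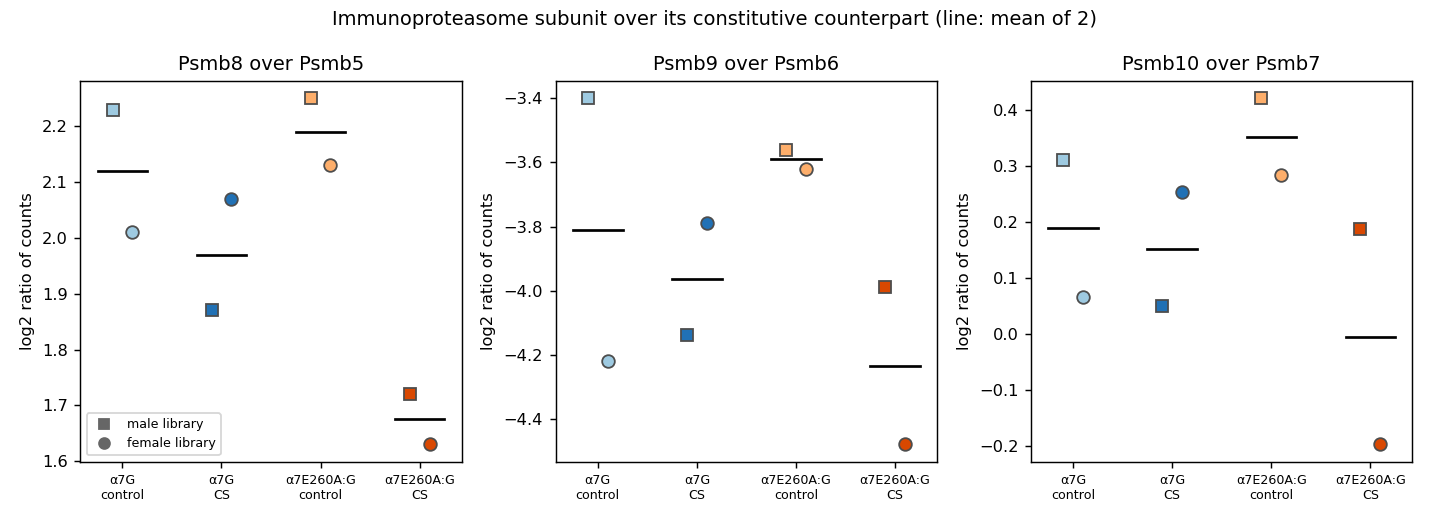
Log2 ratio of the counts of each immunoproteasome subunit to those of the constitutive subunit it replaces (y axis), in each library by group, with squares for male and circles for female libraries and a line for the mean of the 2. In all 3 panels both α7E260A:G CS libraries are below both α7E260A:G control libraries. The 3 panels use the same libraries and are not separate observations. No share of other gene pairs is given for this order, which was not tested.

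The subunits that stay in both kinds of proteasome were tested beside them. All 12 genes of the 20S core and its assembly had CS effects above 0 in α7G, from 0.46 to 0.95 on the log2 scale with a median of 0.72, and 4 of 12 were above 0 in α7E260A:G (median -0.07), against 48.2% and 44.5% of all genes tested. With the CDS length offset the 12 were still above 0 in α7G, but at 0.10 to 0.47 with a median of 0.31. The 3 constitutive catalytic subunits had a median of 0.73 in α7G and 0.07 in α7E260A:G (0.40 and 0.05 with the offset). None of these 15 genes was called in any of the 5 comparisons. Psme2, a subunit of the interferon-inducible activator, had 56.0 and 62.8 RPM in the male and female α7G controls and 109 and 108 after CS, and 64.2 and 123 against 56.9 and 90.9 in α7E260A:G (chosen after its values were seen). The Psme2 interaction, -1.44, was the furthest from 0 of the pathway genes in the main fit (edgeR, unadjusted p = 0.0635). The CS effect on Psme2 in α7G was 0.98 in that fit, the highest of the 4 proteasome activator genes. With the length offset the highest CS effect in α7G among these 4 was 0.60 and their lowest interaction -1.05.

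Of the 55 other pathway genes named, 43 were tested, and 0 were called in any comparison. In the edgeR test between genotypes, the pathway genes furthest from 0 were Cd1d1, which presents lipids (log2 fold change 0.56, adjusted p = 0.417), the class Ib gene H2-Q6 (-0.44, adjusted p = 0.319), Fcgrt, the neonatal Fc receptor (0.38), Rfx5, part of the complex that binds the X box (-0.37), and the loading chaperone Canx (0.34, adjusted p = 0.395). Cd1d1, Canx and H2-Q6 were the 3 with an unadjusted p under 0.05 (2 higher and 1 lower) among the 43, and 11.7% of all genes tested passed that level. H2-Q6 had 62.7 to 93.3 RPM in α7E260A:G and 97.0 to 132.5 RPM in α7G. It was thus lower without overlap, as were 5.18% of all genes tested. It also belongs to a family of near-identical genes among which reads may be split.

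With CS over both genotypes, the furthest in the edgeR test were Ciita, the class II transactivator (-0.86, adjusted p = 0.656), the kinases Jak2 (-0.58, adjusted p = 0.656) and Jak1 (-0.46, adjusted p = 0.656), and the constitutive subunits Psmb6 (0.47) and Psmb5 (0.43). In the interferon-γ signalling list, 8 of the 9 genes tested were below 0 with CS over both genotypes (median -0.27), and 0 were called.

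The interferon-γ targets were likewise below 0 with CS. All 10 tested of the 18 named had negative log2 fold changes over both genotypes, with a median of -0.29 against -0.01 for all genes, and 0 were called. Between genotypes their median was 0.02, and the 4 furthest from 0 were Cd274, Gbp7, Ciita and Gbp2. Cd274, the gene of the inhibitory ligand PD-L1, had 59.9 and 36.8 RPM in the male and female α7G controls, 37.2 and 39.7 in α7G CS, 96.7 and 64.9 in α7E260A:G control, and 106 and 68.7 in α7E260A:G CS. Every α7E260A:G library was above every α7G library, with a log2 fold change of 1.01 ± 0.20 (SE, unadjusted p = 0.00146, adjusted p = 0.118). Of all genes tested, 3% were above without overlap in this way, and so was the sum of the alveolar macrophage markers given above, whose part in the Cd274 level was not tested. The guanylate-binding proteins Gbp7 (0.47) and Gbp2 (0.24) and Ciita (-0.30) had unadjusted p-values of 0.115, 0.198 and 0.484.

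The library patterns of the members fell into 3 sets. Over the 8 libraries, log2 CPM of H2-K1, H2-D1, B2m, Psmb8 and Psmb10 had a Pearson r of 0.79 to 0.99 with each other, the highest between Psmb8 and Psmb10. Tap1 and Tap2 had an r of 0.77 with each other and between -0.14 and 0.36 with those 5. Tapbp had -0.70 to -0.88 with the 5, but 0.29 with Tap1 and 0.3 with Tap2. The points are the same 8 libraries with the length dependence given above. With that dependence removed, Tap1 had an r of 0.83 with H2-K1 and 0.82 with Psmb8, and B2m had 0.40 with H2-K1 and 0.37 with Psmb8. Tapbp was then below 0 with all 7 others, though at -0.066 with Tap1.

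**Figure D5:**
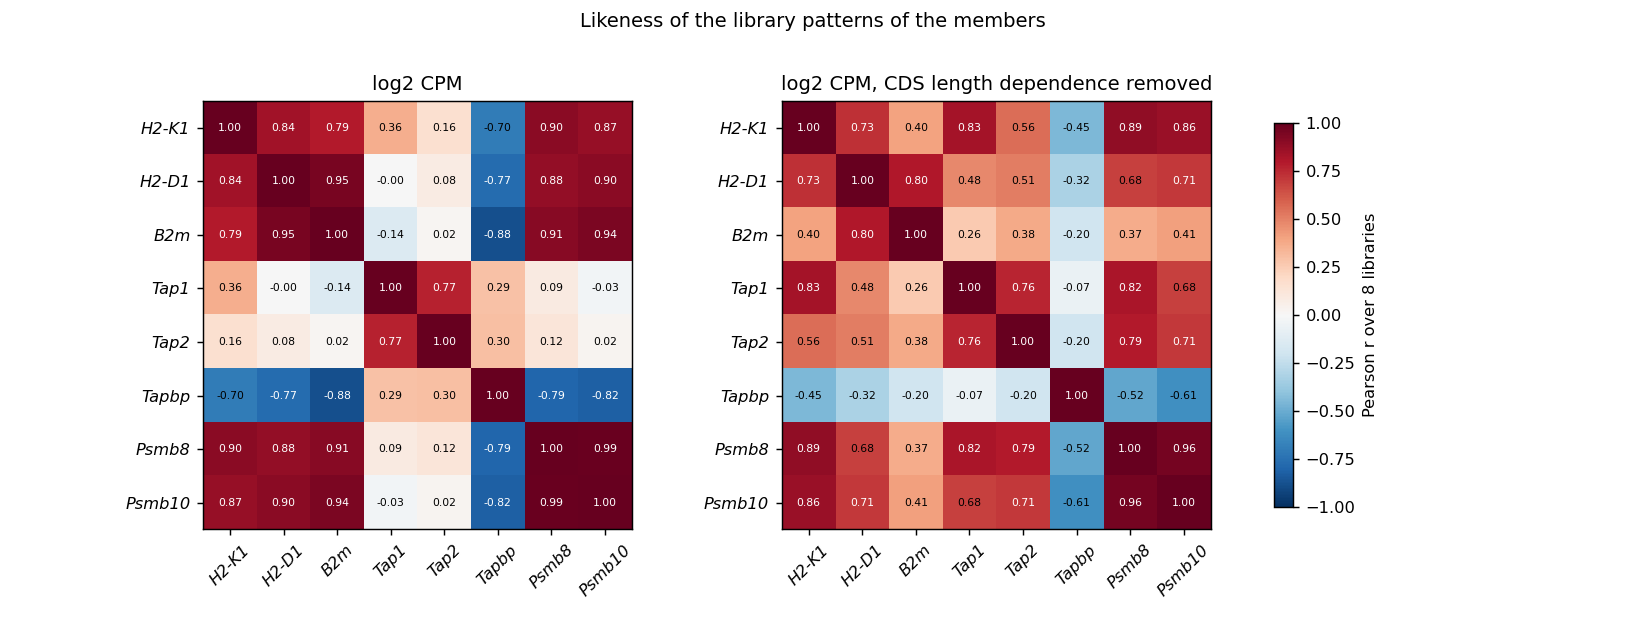
Pearson r over the 8 libraries between each pair of the 8 members tested, on log2 CPM (left) and with the dependence on CDS length removed (right), from blue (-1) to red (1). Psmb8 and Psmb10 are the most alike on both sides (0.99 and 0.96), and Tap1 and Tap2 join the red block only on the right.

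The 5 other genes whose log2 CPM followed the mean standardized pattern of the 8 members most closely were 2610027L16Rik (Pearson r = 0.973 over 8 libraries), Ms4a6b (0.95), Ighm, the immunoglobulin mu heavy chain (0.931), Ly6c2, a surface antigen of monocytes (0.929), and Slamf6, a lymphocyte receptor (0.923). With length dependence removed, Ighm (0.946) and Ly6c2 (0.929) were again among the first 5, with the interferon-inducible Gbp3 (0.931). Several of these are leukocyte genes, in a fraction that held 5990 to 7490 RPM of leukocyte markers, and the part of leukocyte content in the member patterns was not tested.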

How the data were processed

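RNA from the CD45-depleted distal lung of 8 libraries was sequenced from stranded mRNA libraries. The authors aligned the reads with STAR to mm9 and counted them over the coding sequence of GENCODE M1 genes with HTSeq, and the deposited values are raw counts per gene. Library totals of 8020726 to 10944100 counts set the precision. RPM is the count over the library total.

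Tests used edgeR 4.0.16 (R 4.3.3) on the counts: TMM scaling, 4 group means, quasi-likelihood test, a minimum mean of 200 counts per gene (7378 genes), Benjamini-Hochberg adjustment over all of them and a threshold of 0.05. The scripts were tested on simulated data. Subunit ratios used a two-sided exact permutation test on log2 ratios with a pseudocount of 0.5. Length dependence was the trend of log2 CPM on CDS length, fitted in each library, and entered as an offset. Alternatives were other scalings and filters, sex as a block, the length offset, fits by genotype, DESeq2 1.42.0 and leaving out each library. Motifs were searched in RefSeq windows.

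The members, gene lists and tests were chosen with earlier results of these data known. Named were all members, the 5 pathway genes furthest from 0 between genotypes and with CS, the 4 such interferon-γ targets between genotypes, and the 5 genes most like the members. Genes outside this rule are said to be so or were named because a count was 5 or fewer. The result of 1 pathway gene is not reported here.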

Additional observations from a re-analysis of the deposited data

Results flagged for a closer look

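H2-K1 was higher with CS in both sexes of α7G and lower in both sexes of α7E260A:G. The difference between the CS effects, -0.75 on the log2 scale, did not pass its test (adjusted p = 0.992, edgeR quasi-likelihood interaction). It ran from -1.10 without the male α7E260A:G control library to -0.268 without the female one.

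B2m had 5563 RPM in the female α7E260A:G control library, far from the other 3 of the 4 control libraries: its gap to the next was 0.853 of their range. Chance alone sets apart about 1 in 20 such groups, and 36 were examined.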

How the results depend on the processing

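With 2 libraries per group, intervals were wide, and no member passed the threshold except Psmb8 and Psmb10 in the fit to the α7G libraries alone. Genes called between genotypes, 8 with edgeR, were 13 with filterByExpr, 69 with no abundance filter, 26 with the replicate block for sex, 441 with the CDS length offset, 590 with block and offset together, 422 with DESeq2, and 1 to 344 when each library was left out. For CS over both genotypes, 0 became 1 with no filter, 1 with the length offset, 1 with block and offset, 35 with DESeq2 and 0 to 55 without a library. For CS in α7G, 0 became 23 with DESeq2 and 1116 in the 4 libraries alone, where 2 members were called. For CS in α7E260A:G, 0 became 1 with filterByExpr, 3 with no filter, 1 with the offset, 1 with block and offset, 31 with DESeq2 and 0 to 81 without a library. For the interaction, 0 became 6 with DESeq2 and 0 to 58 without a library. The causes were not tested.

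Equal replicate numbers mark sex. Deviations of same-numbered libraries had r from 0.018 to 0.758 over 6 pairs of groups, and from 0.132 to 0.496 with length dependence removed. The labels tie the number to sex and to no shared litter or day. The main test was fitted without a block, so differences between the sexes count in it as spread within groups. The common dispersion, the fitted spread shared by all genes, was 0.0882 in the main fit and 0.0614 with the replicate block. With the replicate block, alone or with the length offset, 0 members were called.

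With library size alone as scaling, which moved the median of all genes for CS in α7G from -0.02 to -0.14 and for the interaction from 0.03 to 0.22, the genotype log2 values were -0.02 for H2-D1 (-0.0184), -0.0202 for Tap2 and -0.0119 for Tapbp, Tap2 was -0.036 with CS in α7G, and Tapbp was 0.0287 with CS in α7E260A:G. With the length offset, CS over both genotypes gave -0.278 for B2m, -0.0598 for Psmb8 and -0.0219 for Psmb10 (with the block also, -0.278, -0.0591 and -0.0189). CS in α7G gave -0.142 for B2m and 0.139 for Tap1 (with the block -0.146 and 0.142, in the 4 libraries alone -0.139 and 0.14). The Tapbp interaction was -0.0146 with DESeq2 size factors and -0.0145 with DESeq2. With length dependence removed, chosen after seeing the data, members within both sexes were 1 lower in α7G (0 in RPM), 7 lower in α7E260A:G (3) and 4 opposite between genotypes (1).

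Leaving out each library in turn gave these log2 ranges where a direction turned. Between genotypes, H2-D1 ran from -0.0939 to 0.167, B2m from -0.205 to 0.652, Tap2 from -0.0917 to 0.191, Tapbp from -0.151 to 0.153, Psmb8 from -0.416 to 0.124 and Psmb10 from -0.349 to 0.171. For CS over both genotypes, H2-K1 ran from -0.299 to 0.0967, H2-D1 from -0.124 to 0.141, B2m from -0.262 to 0.599, Tap2 from -0.204 to 0.0447, Tapbp from -0.155 to 0.145, Psmb8 from -0.0973 to 0.447 and Psmb10 from -0.0501 to 0.474. For CS in α7G, Tap1 ran from -0.266 to 0.219, Tap2 from -0.119 to 0.388 and Tapbp from -0.0905 to 0.0454. For CS in α7E260A:G, H2-D1 ran from -0.439 to 0.111, B2m from -1.15 to 0.592, Tapbp from -0.271 to 0.309, Psmb8 from -0.793 to 0.315 and Psmb10 from -0.729 to 0.338. The Tapbp interaction ran from -0.233 to 0.328. The genotype difference in log2 ratio ran from -0.142 to 0.166 for Psmb9 to Psmb6 and from -0.079 to 0.127 for Psmb10 to Psmb7. Members whose genotypes did not overlap were 0 to 1: Tap1 without the male and H2-K1 without the female α7E260A:G control library. No share of all genes is given for these smaller sets of libraries. A group left with 1 library was assumed to vary like the others.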
